A study of Homo sapiens with 14 samples.

Results

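The 9 genes described here encode transcription factors that set myeloid lineage choice or hold blood progenitors in their immature state. They were chosen by name: SPI1 (the gene of PU.1), IRF8, KLF4, GFI1, GATA2, MYB, LMO2, RUNX1 and IKZF1 (Ikaros). All 9 were found among the 39293 gene identifiers measured. RNA was sequenced from 14 libraries of MOLM14, an acute myeloid leukaemia cell line with an internal tandem duplication in the receptor kinase FLT3, to compare cells at an early stage of resistance to gilteritinib, a FLT3 inhibitor, with acutely treated and with untreated parental cells. FGF2 early libraries (n = 4) came from flasks 5 to 8 of cells grown with fibroblast growth factor 2 at 10 ng/mL, and FL early libraries (n = 4) from flasks 9 to 12 of cells grown with FLT3 ligand at the same concentration. Both early lines had 100 nM gilteritinib for 48 h before RNA was taken. The acute arm (n = 3) is parental MOLM14 given 100 nM gilteritinib for 48 h, 1 library each with FGF2, with FL (both at 10 ng/mL) and without ligand. Its spread therefore includes differences between ligands. The parental arm (n = 3) is MOLM14 labelled as untreated. All libraries come from a single cell line. The labels do not say whether flasks were selected separately or whether parental replicates are separate cultures, so the p-values may cover technical spread alone.

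PU.1, RUNX1 and their partners open the chromatin of myeloid genes, and the dose of PU.1 helps to decide between fates. IRF8, often bound to DNA together with PU.1, and KLF4 drive monocyte differentiation, while GFI1, a repressor, supports the neutrophil fate and blocks monocyte genes. GATA2, MYB and LMO2 act in stem and progenitor cells and are lowered as most myeloid cells mature, and IKZF1 is known mainly for lymphoid development but is also expressed in myeloid progenitors.

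Total estimated counts per library were between 25723575 and 33075041, and the lowest estimated count of any of the 9 genes in a library was 130, for GATA2. The counts of KLF4, which was also low, ran from 205 to 694. All 10 markers fixed for the label of a myeloid leukaemia line reached at least 1 CPM (the estimated count scaled by the TMM method to a common library size) in every library. The 5 erythroid markers were at 0 in every library, and the summed T cell, B cell, megakaryocyte and fibroblast markers did not pass 2.18 CPM in any. The 5 epithelial markers summed to 20.6 to 27.0 CPM in FGF2 early, 18.95 to 38.03 CPM in FL early, 15.8 to 17.1 CPM in acute and 12.9 to 15.1 CPM in parental libraries, with KRT19 at 0 in all of them and the sum mostly from the keratin genes KRT18 and KRT8, and their part in the results was not tested. Mast cell and basophil markers, which matter here because GATA2 is also expressed in those cells, summed to 0.655 to 1.08 CPM in FGF2 early, 0.892 to 3.50 CPM in FL early, 0.193 to 0.492 CPM in acute and 0.148 to 0.482 CPM in parental libraries. The acute libraries differed from the rest in the share of counts in ribosomal protein genes, at 16.3% to 19.7% against 10.8% to 13.0% in the other libraries. The part of that share in the results was not tested, but scaling without those and mitochondrial genes changed no call of a member against the acute arm. Against parental cells it changed that of IKZF1 in FL early cells. FL early replicates did not lie together: on the first principal component, with 47.3% of the variance, replicates 1 to 4 were at −5.66, −25.8, −25.7 and −40.6, and on the second (19.2%) at −9.02, −34.8, −33.7 and 16.9.

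Set against untreated parental cells, early resistant cells had more RNA of the progenitor factors GATA2, MYB and LMO2, of the neutrophil factor GFI1 and of SPI1 and IKZF1, and less of the monocyte factor IRF8. Of the 9 genes, 6 were higher and 1 was lower in the average of the early lines (edgeR's quasi-likelihood test, Benjamini-Hochberg adjusted p under 0.05 over 15756 genes). RUNX1 and KLF4 were not called. Over all genes tested, 29.8% were called, 13.7% higher and 16.1% lower. The median log2 fold change was 0.31 over the 9 genes and 0.01 over all genes. Early and parental libraries did not overlap in 7 of the 9 genes, beside 22.3% of all genes. The plot of changes by comparison shows each gene with its error. In bulk RNA, fewer cells that express a gene and less of its RNA per cell cannot be told apart.

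**Figure D1:**
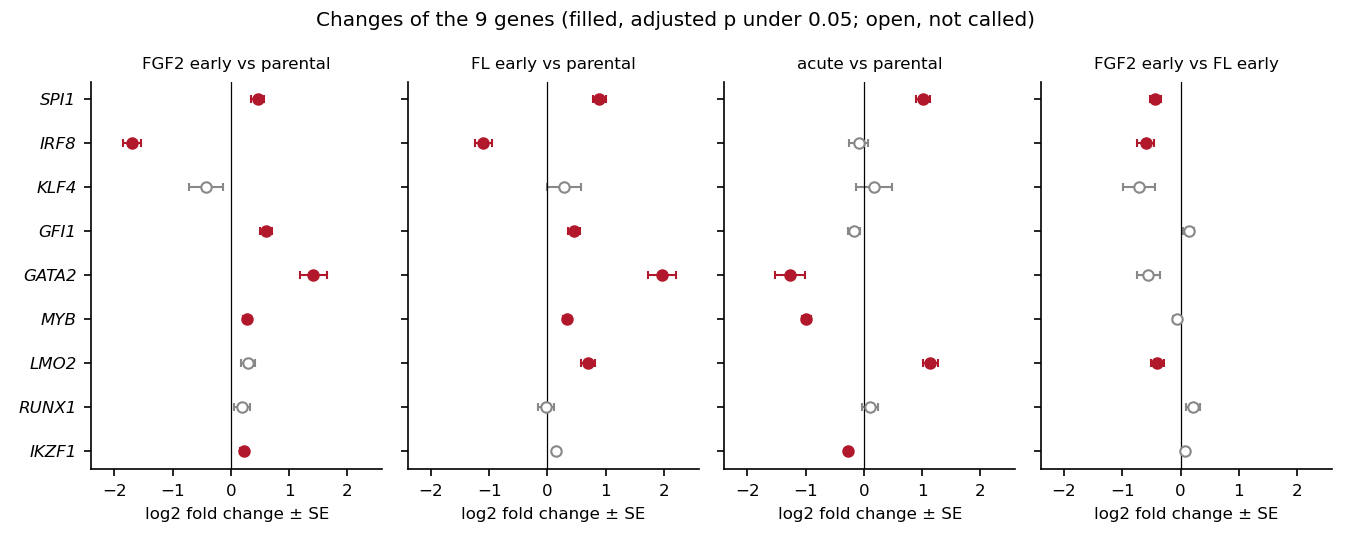
Log2 fold change (horizontal axis) of each of the 9 genes in 4 comparisons, FGF2 early, FL early and acute each against parental libraries and FGF2 early against FL early, with bars of 1 standard error and filled points where the adjusted p is under 0.05. GATA2 lies right of 0 in both early lines (1.41 and 1.96) and left of 0 in acute cells (−1.27), while IRF8 lies far left in the early lines (−1.70 and −1.10) and near 0 in acute cells (−0.09).

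Against acutely treated cells, 4 of the 9 genes were higher in the average of the early lines (GATA2, MYB, GFI1, IKZF1) and 3 were lower (IRF8, LMO2, SPI1), where 66.0% of all genes were called, 32.1% higher and 33.9% lower. The share of members called is thus near that of all genes. Early and acute libraries did not overlap in 5 of the 9, beside 50.2% of all genes. Acute cells themselves, set against parental cells, were called for 5 of the 9, with SPI1 and LMO2 higher and GATA2, MYB and IKZF1 lower, where 62.6% of all genes were called, 32.3% higher and 30.3% lower. Acute and parental libraries did not overlap in 5 of the 9, beside 69.4% of all genes. These comparisons share libraries, the early lines or the parental cells, so they are not independent of each other.

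GATA2, the zinc finger factor of stem and progenitor cells, varied most of the 9 on the log2 scale. It was at 40.9, 56.6, 44.8 and 27.6 CPM in FGF2 early, 56.7, 74.8, 52.1 and 65.1 CPM in FL early, 8.56, 5.01 and 6.20 CPM in acute (with FGF2, with FL and without ligand) and 13.7, 14.7 and 19.5 CPM in parental libraries. Every early library was above every parental library, and every parental library was above every acute one. The log2 fold change in early lines was 1.69 ± 0.22 against parental cells (SE, adjusted p = 1.26e-04, 3.22-fold) and 2.96 ± 0.24 against acute cells (adjusted p = 9.86e-08). In acute cells GATA2 fell by 1.27 ± 0.26 on the log2 scale against parental cells (adjusted p = 5.89e-04). Of all genes tested, 4.35% changed at least as much between early and parental cells, and 7.34% had an SD of log2 CPM over the 14 libraries at least as large as that of GATA2 (1.32). FGF2 early libraries averaged 42.5 ± 11.9 CPM and FL early libraries 62.2 ± 10.0 CPM (SD, n = 4 each), but the difference did not pass the test (FGF2 early minus FL early −0.55 ± 0.20, adjusted p = 0.0904). It passed without FGF2 early replicate 2 (−0.72, adjusted p = 0.0410), with DESeq2 (adjusted p = 0.0494) and with limma-voom (adjusted p = 0.0457). The mast cell and basophil markers given above, also higher in early lines, sum to at most 3.50 CPM, and their part in the GATA2 values was not tested.

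MYB, a factor needed for the growth of immature blood cells, moved in the same 2 directions over a narrower range. Its values were 485, 509, 514 and 485 CPM in FGF2 early, 472, 570, 507 and 525 CPM in FL early, 225, 209 and 188 CPM in acute (with FGF2, with FL and without ligand) and 416, 417 and 401 CPM in parental libraries. The 3 levels did not overlap, with early lines highest and acute cells lowest. In early lines MYB rose by 0.31 ± 0.07 on the log2 scale against parental cells (adjusted p = 0.00388) and by 1.29 ± 0.07 against acute cells (adjusted p = 1.64e-09). In acute cells it fell by 0.99 ± 0.08 against parental cells (adjusted p = 9.65e-08). The difference between the early lines did not pass the test (FGF2 early minus FL early −0.06 ± 0.07, adjusted p = 0.639).

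GFI1, a repressor of monocyte genes, was at 171, 185, 169 and 167 CPM in FGF2 early, 179, 141, 133 and 174 CPM in FL early, 108, 95.7 and 101 CPM in acute (with FGF2, with FL and without ligand) and 107, 111 and 125 CPM in parental libraries. All 8 early libraries were above all 6 others, and acute and parental libraries overlapped. The increase in early lines was 0.53 ± 0.09 against parental (adjusted p = 9.21e-04) and 0.70 ± 0.09 against acute cells (adjusted p = 1.14e-05). Acute and parental cells did not pass the test (−0.17 ± 0.11, adjusted p = 0.189).

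GATA2, GFI1 and MYB were the only members other than IKZF1 that were higher in early lines than in both parental and acute cells. Their promoters are shown because these 3 had the larger increases of the 4 against parental cells, so that the sequence upstream of their starts can be set side by side. The 3 did not share 1 pattern over all arms, since GATA2 and MYB fell in acute against parental cells and GFI1 was not called there. Each is the 250 bases before the outermost start listed in RefSeq (GRCh38.p14), 5′ to 3′ on the gene's strand: chr3:128493202-128493451 (minus strand) for GATA2, chr1:92486926-92487175 (minus strand) for GFI1 and chr6:135181058-135181307 (plus strand) for MYB. Capitals mark matches, on either strand, to the motifs searched.
GATA2: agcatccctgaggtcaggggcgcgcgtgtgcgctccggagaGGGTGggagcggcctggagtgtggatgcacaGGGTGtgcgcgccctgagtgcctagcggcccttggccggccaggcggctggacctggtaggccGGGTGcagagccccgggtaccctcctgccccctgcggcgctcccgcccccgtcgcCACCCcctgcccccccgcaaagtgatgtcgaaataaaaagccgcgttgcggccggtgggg
GFI1: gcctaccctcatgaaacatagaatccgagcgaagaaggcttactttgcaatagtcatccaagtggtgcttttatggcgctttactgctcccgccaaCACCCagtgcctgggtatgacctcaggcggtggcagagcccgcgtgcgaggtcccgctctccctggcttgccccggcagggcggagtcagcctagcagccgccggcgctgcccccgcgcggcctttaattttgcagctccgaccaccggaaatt
MYB: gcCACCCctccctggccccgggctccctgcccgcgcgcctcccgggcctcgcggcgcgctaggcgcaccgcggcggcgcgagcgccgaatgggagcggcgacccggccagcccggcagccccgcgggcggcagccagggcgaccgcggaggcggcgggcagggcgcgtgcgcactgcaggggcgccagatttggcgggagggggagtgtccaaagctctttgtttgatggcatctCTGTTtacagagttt

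The motifs of members and their relatives were searched on both strands, and each is given with the share of 35116 RefSeq windows of this length that hold it. The KLF4 motif GGGTG, found in 54.7% of windows and read as CACCC on the other strand, matched 4 times for GATA2 and 1 time each for GFI1 and MYB. At least 4 such matches occurred in 2.91% of windows. The MYB motif AACNG, found in 70.6% of windows and capitalised here from the other strand, matched 1 time in the MYB window. The motifs with no match in the 3 windows were that of PU.1 and other ETS factors, which is AGGAAG and occurs in 28.7% of windows, that of RUNX1, which is TGTGGT and occurs in 3855 windows, that of GATA factors, which is AGATAA and occurs in 9.17% of windows, that of GFI1, which is AAATCA and occurs in 11.6% of windows, and that of IKZF1, which is TGGGAA and occurs in 20.8% of windows. No match overlapped another. GC content was 72.8% for GATA2, 61.2% for GFI1 and 75.6% for MYB, against a median of 58.0% over all windows. These matches describe the letters only.

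IRF8, a driver of monocyte and dendritic cell differentiation, was the member that was lower in both early lines. It stood at 324, 276, 276 and 278 CPM in FGF2 early, 468, 469, 532 and 280 CPM in FL early, 868, 912 and 858 CPM in acute (with FGF2, with FL and without ligand) and 962, 952 and 895 CPM in parental libraries. Every early library was below every acute and parental one. The log2 fold change was −1.70 ± 0.15 in FGF2 early (adjusted p = 9.5e-06) and −1.10 ± 0.15 in FL early cells (adjusted p = 3.66e-04) against the same parental libraries. In each early line 5 of the 9 genes were higher and 1, IRF8, was lower; SPI1, GATA2, GFI1 and MYB were higher in both, while IKZF1 passed in FGF2 early and LMO2 in FL early cells. Of these 2, LMO2 also differed between the lines by the test given further on, and IKZF1 did not pass it (0.07 ± 0.05, adjusted p = 0.413). Of all genes, 30.4% were called in FGF2 early (13.3% higher, 17.1% lower) and 20.7% in FL early cells (10.9% higher, 9.76% lower). In all 9 members FGF2 early and parental libraries did not overlap, beside 48.2% of all genes. For FL early and parental libraries the numbers were 7 members and 31.1% of all genes. Averaged over the early lines, IRF8 fell by 1.40 ± 0.13 against parental (adjusted p = 8.22e-06, 2.64-fold) and by 1.31 ± 0.13 against acute cells (adjusted p = 6.19e-07). Acute and parental levels did not pass the test, at 879 ± 28.9 CPM and 936 ± 36.1 CPM (SD, n = 3 each, adjusted p = 0.651).

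KLF4, which acts with IRF8 in monocytes, was not called against parental or acute cells. The gene was at 9.54, 8.21, 10.4 and 9.05 CPM in FGF2 early, 11.6, 19.4, 23.1 and 7.01 CPM in FL early, 11.4, 16.1 and 14.8 CPM in acute (with FGF2, with FL and without ligand) and 11.6, 12.04 and 13.9 CPM in parental libraries. FGF2 early libraries were all below parental ones, and FL early libraries lay on both sides of them. No comparison of the arms was called for KLF4 (adjusted p = 0.873 for early against parental, 0.428 for early against acute and 0.649 for acute against parental cells). In FGF2 early cells the change against parental was −0.43 ± 0.29 (adjusted p = 0.294), and it passed when only these 2 arms were fitted (−0.42, adjusted p = 0.0136). The SD over FL early libraries was 7.28 CPM, against 0.934 CPM over FGF2 early libraries, and all arms share an estimate of the spread. FGF2 early minus FL early was −0.72 ± 0.27 (adjusted p = 0.1004), and it ran from −0.45 without FL early replicate 3 (adjusted p = 0.322) to −0.95 without FL early replicate 4 (adjusted p = 0.00362), the only single library whose loss took it past the threshold.

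SPI1, the gene of PU.1, and LMO2, a bridging protein of GATA and TAL1 complexes, were higher in acute cells and in the average of the early lines than in parental cells. SPI1 was at 128, 130, 110 and 108 CPM in FGF2 early, 179, 156, 161 and 145 CPM in FL early, 158, 187 and 177 CPM in acute (with FGF2, with FL and without ligand) and 78.6, 78.8 and 102 CPM in parental libraries. All early and acute libraries were above all parental ones, and FL early and acute libraries overlapped. Its log2 fold change against parental cells was 0.46 ± 0.11 in FGF2 early (adjusted p = 0.00662), 0.89 ± 0.11 in FL early (adjusted p = 1.74e-04) and 1.01 ± 0.12 in acute cells (adjusted p = 3.97e-06). LMO2 was at 91.1, 85.3, 94.8 and 87.4 CPM in FGF2 early, 112, 136, 130 and 95.2 CPM in FL early, 177, 174 and 133 CPM in acute (with FGF2, with FL and without ligand) and 76.2, 73.0 and 70.2 CPM in parental libraries. Parental libraries were again lowest without overlap, and all but 1 FL early library were below the acute ones. LMO2 changed by 0.69 ± 0.12 in FL early (adjusted p = 0.00169) and by 1.14 ± 0.13 in acute cells (adjusted p = 2.64e-06), while FGF2 early cells missed the threshold (0.29 ± 0.12, adjusted p = 0.0766). That value passed when FL early replicate 4 (adjusted p = 0.0361) or the acute library without ligand (adjusted p = 0.0375) was left out of the shared fit, and when only the 2 arms were fitted (0.30, adjusted p = 0.0020). The average of the early lines was below acute cells by 0.33 ± 0.09 for SPI1 (adjusted p = 0.00645) and by 0.65 ± 0.10 for LMO2 (adjusted p = 5.58e-05). Neither line was tested against acute cells by itself. With the acute library without ligand as the only acute one, the differences were −0.33 for SPI1 and −0.34 for LMO2. They rest on that 1 library and do not back the calls made with all acute libraries.

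**Figure D2:**
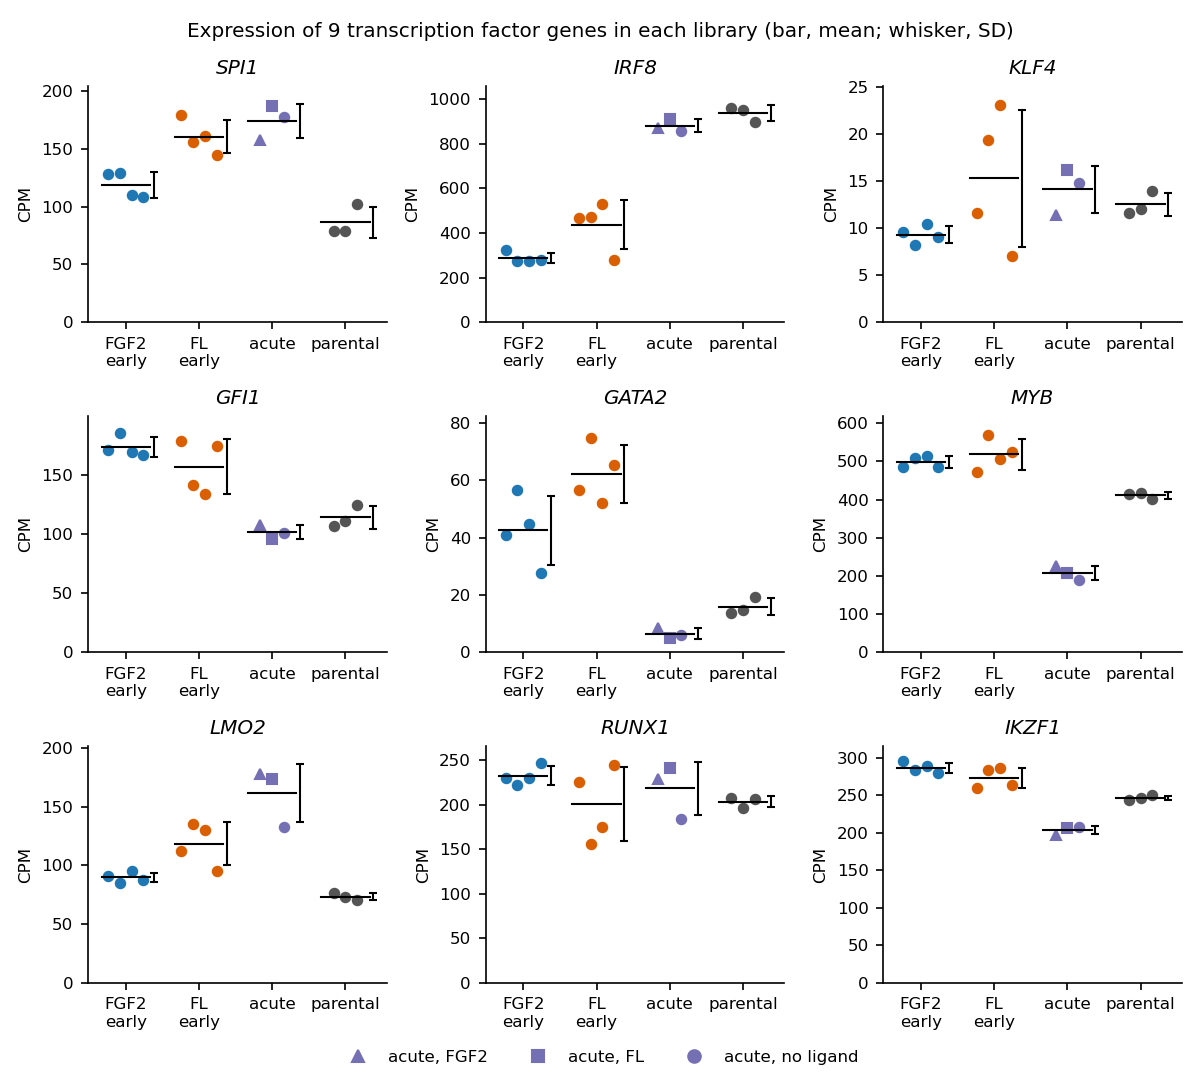
CPM (vertical axis, from 0, own scale per gene) of the 9 genes in every library of FGF2 early (n = 4), FL early (n = 4), acute (n = 3) and parental (n = 3) cells, with the mean and SD of each arm and a marker per ligand within the acute arm. IRF8 lies at 276 to 532 CPM in early libraries and at 858 to 962 CPM in the others, GATA2 at 27.6 to 74.8 CPM in early libraries and at 5.01 to 19.5 CPM in the others.

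RUNX1 and IKZF1 varied least, with SDs of log2 CPM over the 14 libraries of 0.197 and 0.196, against a median of 0.429 over all genes tested. RUNX1, a core factor of blood stem cells that is often altered in leukaemia, ran from 223 to 247 CPM in FGF2 early, 156 to 244 CPM in FL early, 184 to 241 CPM in acute and 197 to 207 CPM in parental libraries. It did not pass in any of the 6 comparisons (adjusted p from 0.280 to 0.920), and its change in early against parental cells was 0.08 ± 0.12 (adjusted p = 0.629). FGF2 early libraries were all above parental ones (0.19 ± 0.13, adjusted p = 0.296), a difference that passed when only these arms were fitted (0.20, adjusted p = 0.00785). IKZF1 ran from 279 to 296 CPM in FGF2 early, 261 to 286 CPM in FL early, 197 to 208 CPM in acute and 244 to 250 CPM in parental libraries, with no overlap between early, parental and acute cells. Small as they were, its changes passed the test in early cells against parental (0.18 ± 0.05, adjusted p = 0.0116) and acute cells (0.46 ± 0.05, adjusted p = 1.39e-06), and in acute against parental cells (−0.27 ± 0.06, adjusted p = 8.32e-04). The early against parental call was lost without parental replicate 1 (adjusted p = 0.0620) or parental replicate 2 (adjusted p = 0.0559). In FL early against parental cells IKZF1 missed the threshold (0.15 ± 0.05, adjusted p = 0.0640), and passed without FL early replicate 1 (adjusted p = 0.0363) or the acute library without ligand (adjusted p = 0.0444), with DESeq2 (adjusted p = 0.0286) and with scaling without ribosomal protein and mitochondrial genes (0.16, adjusted p = 0.0446).

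Between the early lines, 3 of the 9 genes were called, all lower in FGF2 early than in FL early cells, where 13.6% of all genes were called, 4.0% higher and 9.56% lower. SPI1 differed by −0.43 ± 0.10 (adjusted p = 0.0120), IRF8 by −0.60 ± 0.14 (adjusted p = 0.0134) and LMO2 by −0.40 ± 0.11 (adjusted p = 0.0277). SPI1 and LMO2 did not overlap between the lines, whereas IRF8 in FL early replicate 4 (280 CPM, flask 9) was within the range of FGF2 early libraries. Of all genes, 17.3% did not overlap between the lines. The IRF8 call was lost when only the early arms were fitted (−0.61, adjusted p = 0.0538). The LMO2 call was lost without any of FGF2 early replicates 1, 2 or 4 (adjusted p = 0.0592, 0.0705 and 0.0728) or FL early replicates 2 or 3 (adjusted p = 0.0890 and 0.0865).

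Within FL early cells, replicates 1 and 4 (flasks 10 and 9) stood apart from replicates 2 and 3 (flasks 11 and 12) in some members and not in others. KLF4 was at 11.6 and 7.01 CPM in replicates 1 and 4, against 19.4 and 23.1 CPM in replicates 2 and 3. LMO2 (112 and 95.2 against 136 and 130 CPM) and IKZF1 (261 and 264 against 284 and 286 CPM) were lower in replicates 1 and 4. RUNX1 (226 and 244 against 156 and 175 CPM) and GFI1 (179 and 174 against 141 and 133 CPM) were higher in them. In RUNX1 and GFI1, replicates 1 and 4 were within the FGF2 early range (223 to 247 and 167 to 185 CPM). IRF8 was also lower in replicates 1 and 4 (467.9 and 280.1 against 469.4 and 531.7 CPM), though replicate 1 was barely below replicate 2. The other members did not divide this way, with SPI1 at 179 and 145 against 156 and 161 CPM. GATA2 was at 56.7 and 65.1 against 74.8 and 52.1 CPM, and MYB at 472 and 525 against 570 and 507 CPM. Replicates 1 and 4 were also apart from each other on the first (−5.66 and −40.6) and second (−9.02 and 16.9) principal components. These differences between flasks were noticed in the values and were not tested.

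**Figure D3:**
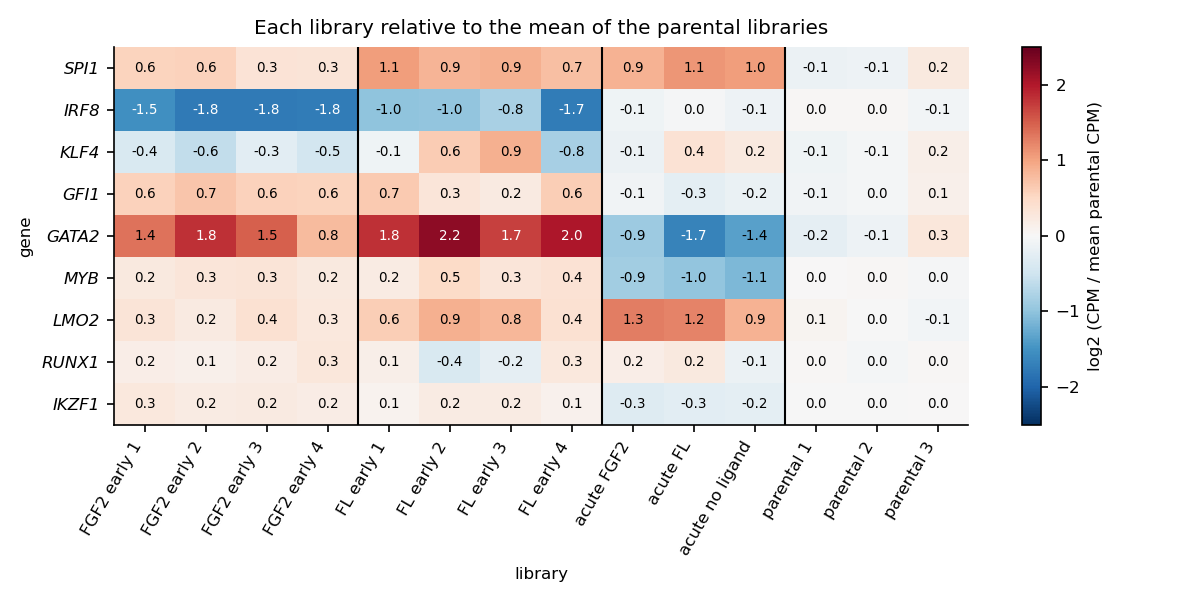
Log2 of CPM over the mean of the parental libraries (colour) for the 9 genes (down the page) in each of the 14 libraries (across), from FGF2 early and FL early to acute and parental. GATA2 is raised in all 8 early libraries and lowered in the 3 acute ones, IRF8 is lowered in the 8 early ones, and KLF4 differs in sign between FL early replicates.

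The acute libraries show the members after 48 h of gilteritinib with and without ligand, 1 library each, so the values below have no test. LMO2 was at 177 CPM with FGF2 and 174 CPM with FL, against 133 CPM without ligand. RUNX1 was at 229 CPM with FGF2 and 241 CPM with FL, against 184 CPM without ligand. GATA2 was at 8.56 CPM with FGF2 and 5.01 CPM with FL, against 6.20 CPM without ligand. The log2 ratio to the library without ligand lay between −0.38 and 0.47 with FGF2 and between −0.31 and 0.39 with FL over all 9 genes. With either ligand GATA2 remained below the lowest parental library (13.7 CPM) and MYB below its lowest (401 CPM).

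Per kilobase of transcript, so that genes can be set side by side, IRF8 had the highest level of the 9 in FL early, acute and parental cells, with either the median or the longest GENCODE 29 transcript length. In FGF2 early cells IRF8 was at 305 and MYB at 190 CPM per kilobase by the median length, but 95.1 and 135.7 by the longest, so their order depended on the length used. MYB was second in FL early and parental cells by both lengths and at rank 5 or 4 in acute cells, where SPI1 was second. GATA2 and KLF4 were the lowest 2 in every arm.

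**Figure D4:**
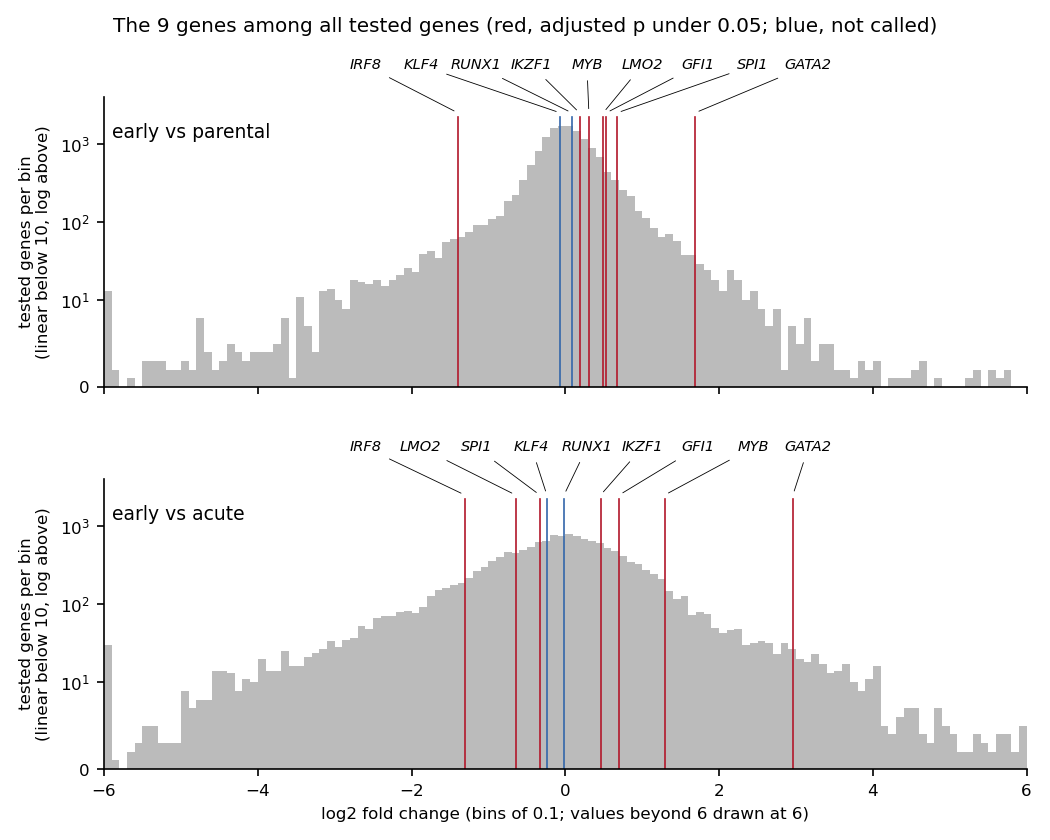
Number of genes (vertical axis) by log2 fold change (horizontal axis) over all 15756 genes tested, for early against parental and early against acute cells, with a line for each of the 9 genes. GATA2 (1.69 and 2.96) and IRF8 (−1.40 and −1.31) lie toward the ends, with 4.35% and 6.06% of all genes changed at least as much in early against parental cells.

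Partners, relatives and known targets of the members were counted from lists, with log2 fold changes ± SE and mean CPM over the libraries of an arm. Of 22 measured partners and cofactors, 6 rose and 2 fell in early against parental cells (median 0.16), beside 13.7% of all genes higher and 16.1% lower, a combined share near that of the list. LMO4 (1.13 ± 0.09, adjusted p = 1.59e-06), a relative of LMO2, LYL1 (1.41 ± 0.22, adjusted p = 4.94e-04), a helix-loop-helix partner of LMO2, and SSBP3 (0.45 ± 0.10, adjusted p = 0.00388), a stabiliser of LDB1, rose. IRF4, 1 of the 2 that fell, did so at very low levels (0.0999 against 0.858 CPM, −3.175 ± 0.626, adjusted p = 0.00219). In acute against parental cells, where 32.3% of all genes were higher and 30.3% lower, 10 partners rose and 9 fell, among them the corepressor genes HDAC2 (111 against 230 CPM, −1.06 ± 0.06) and KDM1A (88.8 against 167 CPM, −0.91 ± 0.09), which work with GFI1. Of 22 measured family relatives, 5 rose, 6 fell and 11 were not called in early against parental cells (median −0.19), where 29.8% of all genes were called. Among them were KLF6 at 35.4 against 83.6 CPM (−1.24 ± 0.12) and ELF4 at 87.8 against 64.0 CPM (0.45 ± 0.05). In acute against parental cells 11 rose and 3 fell, with KLF13 (1.19 ± 0.10) and IRF7 (2.04 ± 0.21) among those that rose. Of 24 other blood lineage transcription factors measured, 5 rose and 4 fell in early against parental cells (median 0.14), with the differentiation inhibitors ID2 (−0.63 ± 0.09), ID1 (−1.03 ± 0.20) and ID3 (−1.69 ± 0.40) among those that fell. LYL1, also on this list, was among those that rose (1.41 ± 0.22). ID2 fell in both lines, whereas ID1 (−1.97 ± 0.24 in FGF2 early, −0.08 ± 0.24 in FL early) and ID3 (−2.74 ± 0.50 in FGF2 early, −0.65 ± 0.46 in FL early) passed against parental cells in FGF2 early and not in FL early cells (adjusted p = 0.848 and 0.348 there). A call in 1 line and not in the other is no test of the difference between the lines. ID3 was also low, at 0.338 to 4.79 CPM in early and 3.25 to 5.36 CPM in parental libraries. The share called in this list, like that of the partners, was near that of all genes, and that of the relatives was above it. No list was tested as a set.

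Textbook targets of PU.1 were mostly higher in acute cells. Of 20 measured, 12 rose and 2 fell in acute against parental cells, with a median of 1.14 beside 0.07 over all genes (32.3% higher, 30.3% lower), among them TYROBP, an adaptor of myeloid receptors, at 82.7 against 15.2 CPM (2.45 ± 0.16), CTSS, a cathepsin, at 184 against 82.0 CPM (1.17 ± 0.07) and ITGAM, the CD11b integrin, at 90.7 against 27.1 CPM (1.75 ± 0.17). In early against parental cells 8 rose and 2 fell with a median of 0.01, TYROBP at 38.3 against 15.2 CPM (1.34 ± 0.13). Taken by line, 5 rose and 6 fell in FGF2 early (median −0.13, with 13.3% of all genes higher and 17.1% lower) and 9 rose and 2 fell in FL early cells (median 0.28, with 10.9% higher and 9.76% lower). In early against acute cells 3 rose and 15 fell (median −0.88, and −0.04 over all genes, of which 32.1% were higher and 33.9% lower), with CSF1R, the receptor of macrophage colony-stimulating factor, at 12.7 against 142 CPM (−3.55 ± 0.24) and FCGR1A, an Fc receptor, going the other way at 28.7 against 6.61 CPM (2.07 ± 0.16). FGF2 early cells were lower than FL early cells in 7 of the 20, and the other 13 were not called (median −0.73, and −0.00019 over all genes, of which 4.0% were higher and 9.56% lower), with LYZ, lysozyme, at 99.6 ± 28.3 against 610 ± 293 CPM and MNDA, a nuclear antigen of myeloid cells, at 2.32 against 41.8 CPM. Without FL early replicates 1 and 4, a choice made after seeing the data, 13 were lower and 2 higher (median −0.69), where 21.6% of all genes were called.

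Target lists were also counted for IRF8, MYB, GFI1 and KLF4, and each count of early against parental cells stands beside 13.7% of all genes higher and 16.1% lower, with a median of 0.01. Of 12 IRF8-activated genes, a list that holds KLF4, 5 rose and 3 fell in early against parental cells (median 0.26). CIITA and CD74, of the antigen presentation pathway, fell (11.03 against 22.55 CPM, −1.08 ± 0.11, and 132 against 248 CPM, −0.91 ± 0.07), while CST3 (149 against 83.0 CPM, 0.82 ± 0.09) and FCGR1A rose. Of 9 measured MYB-activated genes, 1 rose and 4 fell in early against parental cells (median −0.28), and 2 rose and 6 fell in acute against parental cells (median −1.16, and 0.07 over all genes, of which 32.3% were higher and 30.3% lower). The cyclin genes CCNE1 (0.757 against 17.3 CPM, −4.52 ± 0.19) and CCNB1 (12.9 against 160 CPM), which also follow the cell cycle, and the survival gene BCL2 (59.5 against 133 CPM, −1.16 ± 0.10) were among those that fell in acute cells, and ADA (120 against 40.6 CPM, 1.57 ± 0.14) rose. Of 12 genes that GFI1 represses, 1 rose and 6 fell in early against parental cells (median −0.38). SPI1 and IRF8 are on that list, as the 1 that rose and among those that fell. ID2, an inhibitor of differentiation, also fell (52.8 against 81.7 CPM), and CSF1 did so at very low levels (0.289 against 1.82 CPM). Of 8 KLF4 targets of monocytes, 3 rose and 1 fell in early against parental cells (median 0.54). The gene that fell was CCR2, a chemokine receptor, at 8.17 against 67.2 CPM (−3.07 ± 0.28).

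Genes whose pattern over the 14 libraries was most like that of the 3 most variable members were found by the root mean square difference of log2 CPM centred on each gene's mean, among 9168 genes of sufficient level. GATA2 was most like CTSG, the gene of cathepsin G in neutrophil granules (difference 0.375), and TENT5A (0.456). CTSG was at 288 ± 35.1 CPM in FGF2 early, 419 ± 116 CPM in FL early, 60.8 ± 2.94 CPM in acute and 97.8 ± 4.48 CPM in parental libraries. IRF8 was most like PLAU, the urokinase gene (0.220), and MPZL1 (0.246), with PLAU at 36.9 ± 3.05, 46.5 ± 14.7, 112 ± 17.2 and 122 ± 0.650 CPM in FGF2 early, FL early, acute and parental libraries. MYB was most like TRAM1 and STT3A (both 0.108), genes of protein translocation and glycosylation in the endoplasmic reticulum. Among the members the closest pairs were GFI1 with IKZF1 (0.212) and SPI1 with LMO2 (0.240).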

How the data were processed

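Poly(A) RNA libraries were made with a stranded TruSeq kit and sequenced on a NovaSeq, per the labels' protocols. Quantification used kallisto and build GRCh37, per the submitters' processing notes; the version, the strand setting and any rescaling by transcript length are not given in the sources used here. The authors deposited estimated counts per Ensembl gene, unnormalized, of which 0.054% of values above 0 were whole (within 1e-06). Names from GENCODE 29 and gene tables matched 28848 of 39293 identifiers (73.4%), and unnamed ones held 4.81% to 5.73% of counts. Antisense genes of the members were not analysed here. Promoter windows are RefSeq GRCh38.p14, which listed 7 of the 9 members; 3 are printed.

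Counts were rounded, filtered (filterByExpr, minimum count 10, minimum total 15, 15756 genes) and fitted in 4 arms over all 14 libraries with edgeR 4.0.16 under R 4.3.3 (quasi-likelihood F test with robust estimation, TMM, Benjamini-Hochberg over all genes tested, threshold 0.05). Early against another arm is the mean of both early arms minus that arm. Scripts were tested on simulated counts of all genes. Over the 6 comparisons they recovered 26.9% to 58.2% of 1.5-fold, 59.7% to 64.2% of 2-fold and 75.8% to 90.9% of 4-fold changes. Of the calls there, 3.42% to 6.67% were false. Only 66 or 67 genes were changed at each fold, far fewer than were called in the real data. The rates therefore do not give the power of the tests here. A small change that is not called may still have been missed. Alternatives were DESeq2 1.42.0, limma-voom (limma 3.58.1), other scalings, no filter, fewer arms, the replicate block and leaving out each library. Python 3.11.15 and matplotlib 3.10.9 made summaries and figures. The members, lists and tests were chosen with earlier results of these data known. The text names the 9 members, up to 4 called genes of a list with the smallest adjusted p, and the 2 genes most like each member with an SD of log2 CPM of at least 0.5 (mean log2 CPM at least 3).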

Additional observations from a re-analysis of the deposited data

Results flagged for a closer look

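IRF8 in FGF2 early replicate 1 was at 323.6 CPM, far from the other FGF2 early libraries (276 to 278 CPM). Of 18 groups of 4 libraries looked at, this was the 1 with such a gap, and chance alone sets apart about 1 group in 20. It remains below every FL early library except replicate 4.

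Of 9 members, 3 differed between the early lines by the test of the difference itself, FGF2 early minus FL early: SPI1 (−0.43), IRF8 (−0.60) and LMO2 (−0.40). Against the shared parental libraries SPI1 was 0.46 higher in FGF2 early and 0.89 higher in FL early cells on the log2 scale, LMO2 changed by 0.29 (not called) and 0.69, and IRF8 by −1.70 and −1.10. Ligand and line cannot be told apart.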

How the results depend on the processing

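Over 54 fold changes (9 genes in 6 comparisons) and their alternatives, 1191 of 1242 values kept their direction and their side of the threshold. Changes of sign touched RUNX1, KLF4 and IRF8 in comparisons where none of them was called, and the cause was not tested. Leaving out 1 library at a time, KLF4 ran from −0.201 to 0.05285 in early against parental cells, and RUNX1 from −0.1245 to 0.0635 in early against acute and from −0.133 to 0.0795 in FL early against parental cells. RUNX1 in early against acute cells was also above 0 without the filter (0.0122), without ribosomal protein and mitochondrial genes in the scaling (0.0043) and with the acute library without ligand alone (0.257), which also turned acute against parental (−0.171). Upper quartile scaling turned IRF8 in acute against parental cells (0.0178) and moved the median of all genes there to 0.18, against 0.07. Without FL early replicates 1 and 4, chosen after seeing the data, RUNX1 (−0.0442) and KLF4 (0.179) turned in early against parental and KLF4 in early against acute cells (0.0537), and between the early lines 6 members and 3498 of all genes (21.6%) were called, against 3 and 2137 (13.6%). Members that set these replicates apart are among the 6, so the count is not independent of that choice. Leaving out 1 library, all genes called ran from 2685 to 5337 in early against parental, 1512 to 3943 in FL early against parental and 1351 to 3274 between the early lines.

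Replicate numbers did not pair the libraries: deviations of same-numbered libraries correlated at −0.0939 to 0.0658. With the number as a replicate block on the 11 libraries outside the acute arm, LMO2 in FGF2 early against parental cells passed (0.36, adjusted p = 0.0312), KLF4 in early against parental cells changed sign (0.0617), and 7, 7, 6 and 3 members were called in early, FGF2 early and FL early against parental and between the early lines, beside 28.0%, 28.2%, 20.0% and 12.8% of all genes. No paired analysis was possible because all acute libraries carry number 1, as far as comparisons with the acute arm go. The number of libraries limits precision, and counting error was not measured apart from it.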
